A study of Arabidopsis thaliana with 12 samples.

Results

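ROOT MERISTEM GROWTH FACTORS (RGFs) are small secreted peptides that are cut from longer precursors and that need a sulfated tyrosine for full activity. They bind a family of leucine-rich repeat receptor kinases, the RGF INSENSITIVE receptors (RGIs), and in the root tip this signal maintains the PLETHORA transcription factors PLT1 and PLT2, which set the size of the stem cell niche and the zone of dividing cells. SHORT-ROOT (SHR) and SCARECROW (SCR) are GRAS-family transcription factors of a second, radial pathway: SHR moves out of the stele into the neighbouring layer, where it acts with SCR to specify the endodermis and to keep the quiescent centre. The sulfate is added by a single known enzyme of Arabidopsis, tyrosylprotein sulfotransferase (TPST), which also sulfates phytosulfokine (PSK), PSY and CIF peptides.

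The 10 genes described here were chosen by name and locus: the precursors RGF1 (AT5G60810), RGF2 (AT1G13620) and RGF3 (AT2G04025), the receptors RGI1 (AT5G48940), RGI2 (AT3G24240) and RGI3 (AT4G26540), and the transcription factor genes PLT1 (AT3G20840), PLT2 (AT1G51190), SHR (AT4G37650) and SCR (AT3G54220). These genes and the other gene lists were chosen with earlier results of these data known. The shares of all tested genes set beside their counts are therefore descriptive and not a test. All 10 genes were present among the 32833 genes of the count table, which names RGI1 and RGI2 by their older symbols RCH1 and RCH2. The study profiled messenger RNA of whole Arabidopsis thaliana seedlings, aged 7 days and grown in liquid medium, to learn how seedlings without sulfated peptides respond to PSK. The 4 groups, with 3 libraries each, were untreated tpst seedlings, tpst seedlings given 100 nM PSK for 5 h, tpst seedlings given 1 µM PSK for 5 h, and untreated Col-0 seedlings, the wild type. The mutant was 1 T-DNA insertion line in the Col-0 background, all PSK-treated seedlings carried the same insertion, and each library came from pooled seedlings. The labels call both control groups untreated at time 0, whereas the study's methods describe a water mock for them. These sources do not settle whether controls and PSK-treated seedlings were collected together, so PSK and a difference in collection time cannot be told apart. The labels also mention separated shoots and roots, but titles and methods give whole seedlings, and markers of both tissues were present in every library. PSK was the only peptide added, so in the mutant the RGF peptides themselves were not supplied.

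The libraries held 17066292 to 24948416 counted fragments. Levels are given as CPM, that is counts relative to the library total scaled by the TMM method and compared between genes only as FPKM, which also divides by the exonic length of a gene. Changes are log2 differences from edgeR's quasi-likelihood test, fitted on all 12 libraries, and a gene was called when its p-value, adjusted by the Benjamini-Hochberg method over the 20506 genes tested, was under 0.05. TPST itself, the gene hit in the mutant, had 6.70, 7.61 and 8.14 CPM in untreated tpst seedlings, 6.29, 7.76 and 7.52 CPM with 100 nM PSK and 8.75, 9.26 and 7.10 CPM with 1 µM PSK, against 16.9, 17.03 and 17.3 CPM in Col-0. The mutant thus still held TPST transcript, at a log2 change of -1.19 (SE 0.126, adjusted p = 4.84e-08, edgeR); gene-level counts do not show where its fragments lie relative to the insertion. Col-0 replicate 3 stood apart from the other Col-0 libraries, since its counts differed from theirs by 14.8 and 16.2 on a chi-square scale where sampling noise alone gives about 1, and every other pair within a group lay between 2.92 and 4.93. Values without that library are given where they differ in call.

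The stretch of each RGF precursor gene that encodes the sulfated tyrosine is shown first, since this residue is the target of the enzyme missing in the mutant. Each sequence holds 13 codons read from the last aspartate-tyrosine codon pair of the coding sequence, taken from the RefSeq TAIR10.1 genome and printed 5′ to 3′ on the coding strand, with the tyrosine codon in capitals. RGF1 lies on chromosome 5, minus strand (chr5:24466534-24466572), RGF2 on chromosome 1, plus strand (chr1:4669184-4669222), and RGF3 on chromosome 2, minus strand (chr2:1276902-1276940). In all of them the stop codon follows directly, so the printed bases are the end of the precursor's coding sequence.
RGF1: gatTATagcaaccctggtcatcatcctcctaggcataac
RGF2: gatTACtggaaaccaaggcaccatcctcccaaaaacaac
RGF3: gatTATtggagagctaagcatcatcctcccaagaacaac
RGF2 and RGF3 had the same base at 32 of these 39 positions, RGF1 and RGF3 at 27, and RGF1 and RGF2 at 26. The longest run of identical exonic bases was 9 between RGF1 and RGF2, 12 between RGF1 and RGF3, and 14 between RGF2 and RGF3, each shorter than a sequenced read.

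The 10 genes spanned a wide range of abundance, with SCR at the top and PLT2, RGF2 and RGF1 at the bottom in Col-0. In Col-0, where the length-scaled levels were highest for most of them, SCR averaged 18.3 ± 1.48 FPKM (SD, n = 3). RGI2 at 7.84 ± 0.058 FPKM and SHR at 7.73 ± 0.515 FPKM came next, and their libraries overlapped. RGI1 followed at 2.94 ± 0.258 FPKM. RGF3 at 2.02 ± 0.395 FPKM and RGI3 at 1.92 ± 0.327 FPKM overlapped each other, and PLT1 averaged 1.36 ± 0.0713 FPKM. The lowest were PLT2 at 0.682 ± 0.0753, RGF2 at 0.602 ± 0.125 and RGF1 at 0.229 ± 0.155 FPKM, with overlapping libraries between PLT2 and RGF2.

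One gene was too low to measure. RGF1 had 33 counts over all 12 libraries and passed the minimum of 0.454 CPM in none of them, so the filter on low counts removed it and it received no test. RGF2, with 159 counts, passed in 6 of 12 libraries, namely in none of the untreated tpst libraries and in 2 of each other group. It was therefore tested only because of the other groups. RGF3 with 332 counts and PLT2 with 257 counts passed in 11 of 12 libraries. The other 6 genes passed in all 12, from PLT1 with 465 counts to SCR with 12483.

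RGI3 and RGF2 share exonic bases with genes on the opposite strand, which may limit their counts. The strand setting of the counting is not given, and an effect on these 2 genes was not tested. Of the 3781 exonic bases of RGI3, 2764 (73.1%) coincide with exons of a long noncoding RNA gene on the opposite strand, AT4G26542, which was listed at 0 counts in every library. Across the annotation, 329 of 332 protein-coding genes whose exons lie wholly inside exons of opposite-strand genes had 0 counts in all libraries (99.1%), against 2835 of 20847 genes free of such overlap (13.6%). If only the 1017 bases of RGI3 outside the shared part gave counts, its mean would be 4.83 FPKM in untreated tpst and 7.12 FPKM in Col-0 in place of 1.30 and 1.92 FPKM, so its place in the order of levels is uncertain. RGF2 shares 47 of its 797 exonic bases (5.9%) with the opposite-strand gene AT1G13630. That neighbour was not called in any of the 6 comparisons, and its log2 change with 1 µM PSK was -0.20.

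**Figure D1:**
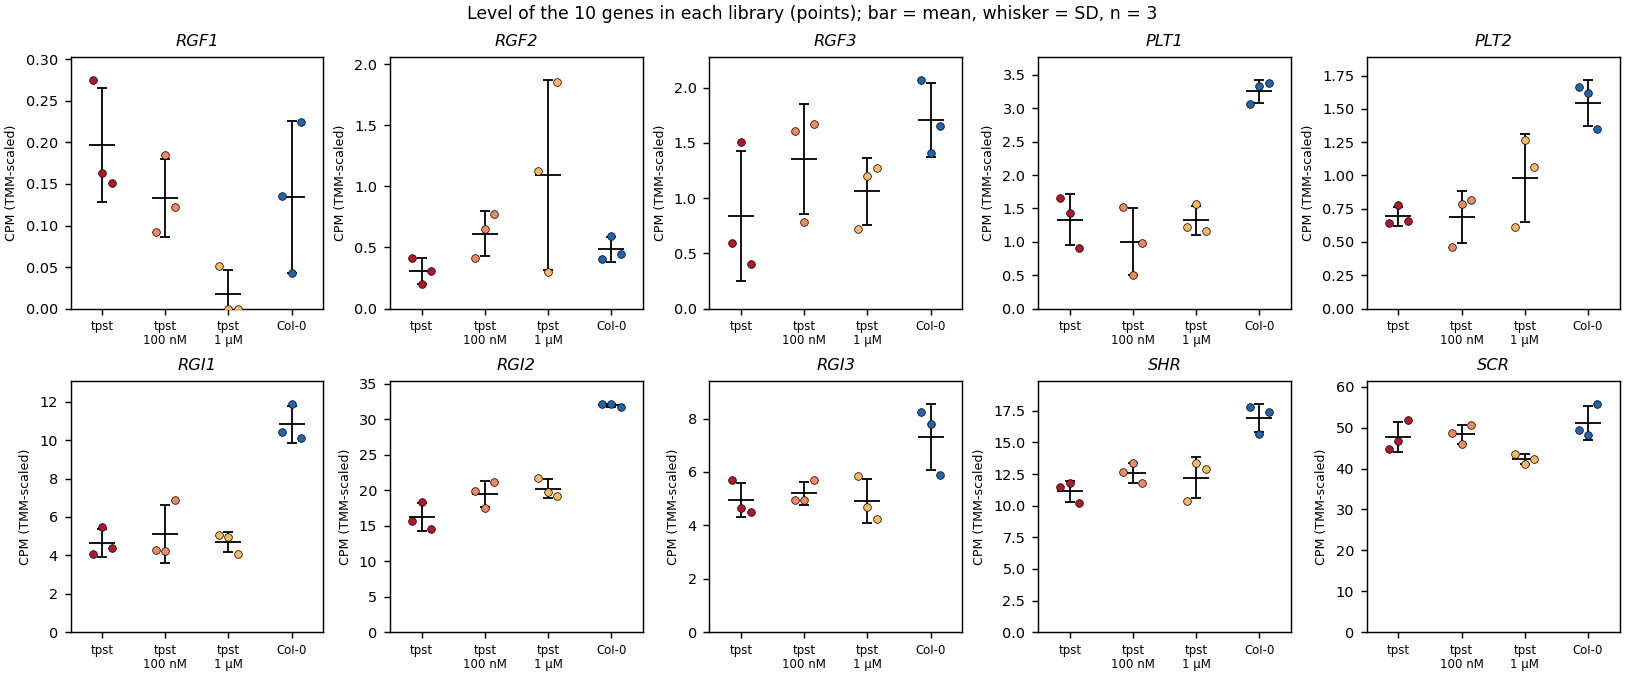
Level in TMM-scaled CPM of the 10 genes, 1 panel per gene with its own axis from 0, in untreated tpst, tpst with 100 nM PSK, tpst with 1 µM PSK, and Col-0 (points are libraries, the bar is the mean, whiskers are the SD, n = 3). RGI1, RGI2, RGI3, PLT1, PLT2 and SHR have all 3 untreated tpst libraries below all 3 Col-0 libraries; SCR does not.

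The comparison of untreated tpst with Col-0 asks how the pathway differs in seedlings that lack peptide sulfation. All 3 receptor genes, both PLT genes and SHR were lower in tpst, whereas SCR, RGF2 and RGF3 were not called. Thus 6 of the 9 tested genes were lower and 0 were higher, where 14.6% of all tested genes were called lower and 13.3% higher. In the same 6 genes every tpst library was below every Col-0 library, as in 20.5% of all tested genes. The median log2 change of the 9 genes was -0.98, against 0.0028 for all tested genes. Whole seedlings were used, so fewer cells of a type and less RNA per cell cannot be told apart in any of these values.

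Each receptor gene was below its Col-0 level. RGI1, which together with RGI2 and RGI3 perceives RGF peptides, had 4.08, 5.48 and 4.40 CPM in untreated tpst, against 10.4, 11.9 and 10.1 CPM in Col-0. The groups lay far apart, with no tpst library above 5.48 CPM. The log2 change was -1.21 (SE 0.177, adjusted p = 7.39e-06, edgeR), or 0.432 of the Col-0 level. RGI2 had 15.6, 18.4 and 14.5 CPM in tpst, against 32.1, 32.1 and 31.7 CPM in Col-0. Its Col-0 libraries were nearly equal and its tpst libraries all sat well below them, with a log2 change of -0.98 (SE 0.0959, adjusted p = 1.34e-08, edgeR). RGI3 had 5.69, 4.66 and 4.50 CPM in tpst, against 8.24, 7.81 and 5.89 CPM in Col-0. The groups were separate by a narrow margin, since Col-0 replicate 3 was close to tpst replicate 1, and the log2 change was -0.56 (SE 0.172, adjusted p = 0.0156, edgeR).

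PLT1 and PLT2, AP2-domain factors that act redundantly in the root stem cell niche, were both below their Col-0 levels. PLT1 had 1.65, 1.43 and 0.910 CPM in tpst, against 3.06, 3.33 and 3.37 CPM in Col-0. The lowest Col-0 library was well above the highest tpst library, and the log2 change was -1.28 (SE 0.306, adjusted p = 0.00219, edgeR). PLT2 had 0.642, 0.777 and 0.657 CPM in tpst, against 1.67, 1.62 and 1.35 CPM in Col-0. These are 46 counts in the 3 tpst libraries together and 111 counts in the 3 Col-0 libraries. The groups did not overlap, and the log2 change was -1.14 (SE 0.375, adjusted p = 0.0231, edgeR). The longest run of identical exonic bases shared by PLT1 and PLT2 was 38.

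SHR and SCR differed in size of change. SHR had 11.5, 11.8 and 10.2 CPM in untreated tpst, against 17.8, 15.7 and 17.4 CPM in Col-0. No library of either group entered the range of the other, and the log2 change was -0.60 (SE 0.113, adjusted p = 1.76e-04, edgeR). SCR, which is also transcribed in the shoot, had 44.7, 46.7 and 51.8 CPM in tpst, against 49.5, 48.2 and 55.9 CPM in Col-0. These ranges overlapped, and the log2 change of -0.10 was not called (SE 0.0712, adjusted p = 0.308, edgeR), with a 95% interval of -0.25 to 0.043. The difference between the SHR and SCR changes was not tested.

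The peptide precursors gave the least certain values. RGF3 had 0.596, 1.51 and 0.405 CPM in tpst, against 2.07, 1.41 and 1.65 CPM in Col-0. Replicate 2 of tpst fell within the Col-0 range, the other tpst libraries were below it, and the log2 change of -0.99 was not called (SE 0.409, adjusted p = 0.0742, edgeR). Without that tpst library the log2 change was -1.76 and was called (adjusted p = 0.00607, edgeR). RGF2 had 0.413, 0.204 and 0.303 CPM in tpst, against 0.405, 0.597 and 0.450 CPM in Col-0. The groups overlapped and the log2 change of -0.66 was not called (SE 0.594, adjusted p = 0.452, edgeR). RGF1 had 13 counts in the 3 tpst libraries together and 10 in the 3 Col-0 libraries, a ratio of 1.42 after scaling, with an exact counting interval of 0.577 to 3.63 that covers counting error only.

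The calls of RGI3 and PLT2 did not hold in every fit that left out 1 library. RGI3 was no longer called without Col-0 replicate 1 (adjusted p = 0.0808, edgeR), Col-0 replicate 2 (0.0568), tpst replicate 2 (0.0599) or tpst replicate 3 (0.0693). Without Col-0 replicate 3, the library that stood apart, its log2 change was -0.69 (adjusted p = 0.00236, edgeR). PLT2 was no longer called without Col-0 replicate 1 (0.0650), Col-0 replicate 2 (0.0596), tpst replicate 1 (0.0709) or tpst replicate 3 (0.0659), although its log2 change kept between -1.23 and -1.09 in those fits and in the fit without Col-0 replicate 3. RGI1, RGI2, PLT1 and SHR kept their calls whichever single library was left out.

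**Figure D2:**
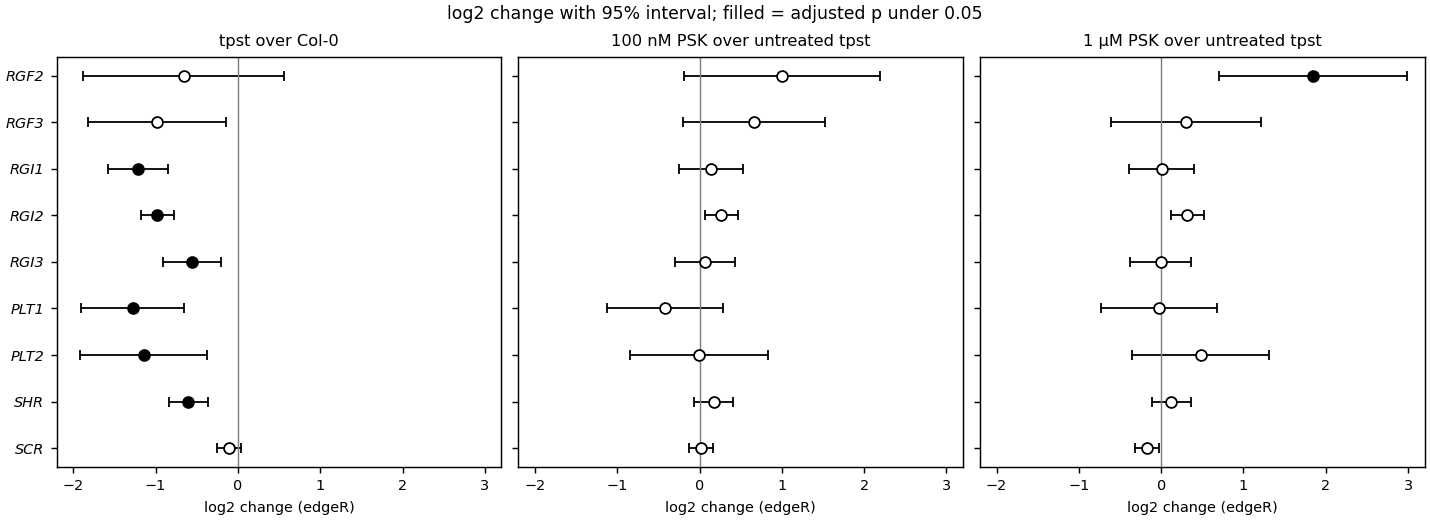
The log2 change of the 9 tested genes (points) with 95% intervals (bars) in untreated tpst over Col-0, in 100 nM PSK over untreated tpst and in 1 µM PSK over untreated tpst, filled where the adjusted p was under 0.05. In the first panel 6 genes are filled, all left of 0, and in the second none is. In the third only RGF2 is filled, at 1.85, and it passed the filter only through groups other than untreated tpst.

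Addition of PSK to tpst seedlings for 5 h tested which of these genes respond to a sulfated peptide outside their own pathway. With 100 nM PSK, 0 of the 9 tested genes were called by edgeR, where 3.2% of all tested genes were. One gene had an unadjusted p under 0.05 and DESeq2 also called 0. That gene was RGI2, with 19.8, 17.5 and 21.2 CPM in seedlings given 100 nM PSK, against 15.6, 18.4 and 14.5 CPM in untreated tpst. The ranges overlapped through untreated tpst replicate 2, and the log2 change was 0.27 (SE 0.0985, adjusted p = 0.190, edgeR). The intervals of the other genes differed widely in width: SCR lay between -0.13 and 0.17 on the log2 scale, SHR between -0.065 and 0.41, and PLT2 between -0.85 and 0.83.

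With 1 µM PSK, RGF2 was the only one of the 9 genes called, as higher than in untreated tpst. Of all tested genes, 3% were called higher and 3.45% lower. This call was favoured by the filter, since RGF2 passed the minimum CPM in none of the untreated tpst libraries. It was tested only through the other groups, among them the 1 µM group where it was high. RGF2 had 1.13, 0.301 and 1.85 CPM in seedlings given 1 µM PSK, against 0.413, 0.204 and 0.303 CPM in untreated tpst. Replicates 1 and 3 of the treated group were above every untreated library, whereas replicate 2 lay inside the untreated range. The log2 change was 1.85 (SE 0.554, adjusted p = 0.0427, edgeR), from 62 counts against 20 counts in the 3 libraries of each group. The call was lost without any one of the 3 untreated tpst libraries (adjusted p = 0.0766 to 0.198), without replicate 2 or 3 of the 100 nM group (0.0580 and 0.0568), and without replicate 1 or 3 of the 1 µM group (0.0993 and 0.331). Without that replicate 3 the log2 change was 1.25. It was also lost with the replicate number as a block (0.0596), and in a fit of the 2 groups alone RGF2 did not pass the filter and had no test. With 100 nM PSK, RGF2 had 0.413, 0.647 and 0.777 CPM, and its log2 change over untreated tpst was 1.00 (SE 0.580, adjusted p = 0.522, edgeR).

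RGI2 came close to a call at the higher dose. It had 21.7, 19.7 and 19.2 CPM with 1 µM PSK, against 15.6, 18.4 and 14.5 CPM in untreated tpst. All 3 treated libraries were above all 3 untreated ones, as in 13.5% of all tested genes, and the log2 change was 0.32 (SE 0.0998, adjusted p = 0.0545, edgeR). Of the 12 fits that left out 1 library, 2 called it, those without Col-0 replicate 3 (adjusted p = 0.0246) and without tpst replicate 2 (0.0222), and in the others the adjusted p reached 0.234. It was called with RLE scaling (0.0483), in a fit of the 2 groups alone (0.0387) and by DESeq2 (0.0441), and not with upper-quartile scaling (0.0516), no filter (0.0514) or the replicate block (0.0653). When the mean of both doses was set against untreated tpst, an alternative chosen after seeing the data, RGI2 had a log2 change of 0.29 (adjusted p = 0.0417, edgeR) and RGF2 one of 1.42 (adjusted p = 0.110). In that comparison 2.53% of all tested genes were called higher.

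The transcription factor genes and the other receptors were not called with 1 µM PSK. SCR had 43.5, 41.0 and 42.4 CPM with 1 µM PSK, against 44.7, 46.7 and 51.8 CPM in untreated tpst. The treated libraries were all below the untreated ones, as in 13.1% of all tested genes, and the log2 change was -0.17 (SE 0.0729, adjusted p = 0.182, edgeR). SHR had 10.3, 13.4 and 12.9 CPM with 1 µM PSK, against the 10.2 to 11.8 CPM of untreated tpst. PLT1 had 1.23, 1.56 and 1.17 CPM and PLT2 had 0.614, 1.26 and 1.06 CPM, and both overlapped their untreated ranges. RGI1 had 5.07, 4.93 and 4.08 CPM, with a log2 change of 0.0061 and a 95% interval of -0.39 to 0.40. RGI3 had 5.83, 4.69 and 4.24 CPM, with an interval of -0.38 to 0.37. RGF3 had 0.716, 1.20 and 1.27 CPM, inside its untreated range.

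RGF1 was detected by a single fragment in the 3 libraries with 1 µM PSK, against 13 fragments in the 3 untreated tpst libraries. Its 3 treated libraries, at 0.0512, 0 and 0 CPM, were all below the untreated ones at 0.275, 0.164 and 0.152 CPM. Such a separation was found in 13.1% of all tested genes, which do not include RGF1. The ratio for RGF1 was 0.0923, with an exact counting interval of 0.00217 to 0.614 that leaves out the spread between replicates. With no filter on low counts edgeR gave an adjusted p of 0.244. With 100 nM PSK the 3 libraries held 9 fragments.

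Between the doses, 0 of the 9 genes were called in 1 µM over 100 nM PSK by edgeR, where 0.239% of all tested genes were; 1 had an unadjusted p under 0.05 and DESeq2 called 0. That gene was SCR, with 43.5, 41.0 and 42.4 CPM at 1 µM, against 48.6, 45.9 and 50.6 CPM at 100 nM. The libraries did not overlap, being lower at 1 µM as in 8.75% of all tested genes, and the log2 change was -0.19 (SE 0.0727, adjusted p = 0.332, edgeR).

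Both PSK-treated groups were also set against Col-0, comparisons that share the Col-0 libraries with each other and with that of untreated tpst. With 100 nM PSK, 6 of 9 genes were lower than in Col-0, where 15.6% of all tested genes were called lower. These were RGI1 (log2 change -1.07), RGI2 (-0.71), RGI3 (-0.49), PLT1 (-1.70), PLT2 (-1.15) and SHR (-0.43). PLT1 had 1.52, 0.508 and 0.981 CPM with 100 nM PSK, against 3.06, 3.33 and 3.37 CPM in Col-0. With 1 µM PSK, 6 of 9 genes were again lower, where 17.9% of all tested genes were called lower. RGI1 (-1.20), RGI2 (-0.66), RGI3 (-0.56), PLT1 (-1.31) and SHR (-0.48) were among them, PLT2 at -0.66 was not called (adjusted p = 0.172, edgeR), and SCR at -0.28 was (SE 0.0724, adjusted p = 0.00386, edgeR). RGI1 had 4.27, 4.21 and 6.87 CPM with 100 nM PSK and 5.07, 4.93 and 4.08 CPM with 1 µM PSK, against 10.1 to 11.9 CPM in Col-0, so no treated library reached the Col-0 range, as in 21% of all tested genes for the lower dose and 23.1% for the higher.

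RGI3 and PLT2 again lost calls in some fits that left out 1 library. RGI3 with 100 nM PSK lost its call without Col-0 replicate 1 (adjusted p = 0.140, edgeR), Col-0 replicate 2 (0.101), or replicate 1 (0.0923) or 2 (0.0984) of the treated group. RGI3 with 1 µM PSK lost it without Col-0 replicate 1 (0.0683) or treated replicate 3 (0.0744). PLT2 with 100 nM PSK lost it without Col-0 replicate 1 (0.0584), Col-0 replicate 2 (0.0544) or treated replicate 1 (0.0938). RGF2 with 1 µM PSK was higher than in Col-0 only without treated replicate 2, at a log2 change of 1.61 (adjusted p = 0.0137, edgeR), against 1.19 with all libraries (adjusted p = 0.0735).

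The remaining RGF precursor genes, also called GOLVEN genes, contain 7 loci, of which 6 were tested. One of the 6, RGF10, passed the minimum CPM only in the 3 Col-0 libraries, so that it was tested only through the group where it was high. Among the other 5, 3 were lower in untreated tpst than in Col-0 and 0 were higher, with a median log2 change of -0.84. Of all tested genes, 14.6% were called lower and 13.3% higher. RGF9 had 7.80, 6.09 and 7.84 CPM in tpst, against 11.1, 13.2 and 14.5 CPM in Col-0. RGF4 had 0.734, 0.532 and 0.455 CPM in tpst, against 1.85, 2.01 and 2.099 CPM in Col-0. RGF7 had 1.56, 0.941 and 0.657 CPM in tpst, against 2.43, 2.82 and 2.47 CPM in Col-0. In all of these the groups were separate, with log2 changes of -0.84 (adjusted p = 0.00229) for RGF9, -1.78 (7.25e-04) for RGF4 and -1.28 (0.00869) for RGF7, edgeR. RGF10 had 0.413, 0.123 and 0 CPM in tpst, against 0.990, 0.853 and 0.787 CPM in Col-0. Its log2 change of -2.24 (adjusted p = 0.0120, edgeR) was favoured by the filter, and it is left out of the count above. No PSK dose gave a call among the 6 by edgeR or DESeq2, with 1 gene at an unadjusted p under 0.05 at each dose. At both doses that gene was RGF7. Its log2 change over untreated tpst was -1.15 at 100 nM (adjusted p = 0.203, edgeR) and -1.40 at 1 µM (adjusted p = 0.0728, edgeR). Of the 6 log2 changes, 2 were above 0 at each dose. RGF6, named here after its value was seen, was listed at 0 in every library, and 673 of its 680 exonic bases (99.0%) coincide with exons of the opposite-strand gene AT4G16510.

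**Figure D3:**
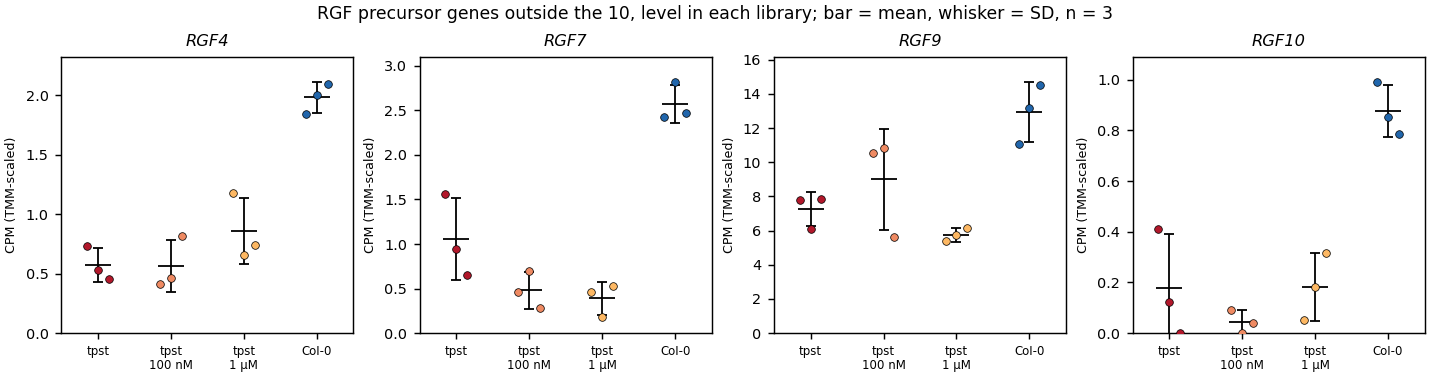
Level in TMM-scaled CPM of RGF4, RGF7, RGF9 and RGF10 in untreated tpst, tpst with 100 nM PSK, tpst with 1 µM PSK, and Col-0 (points are libraries, the bar is the mean, whiskers are the SD, n = 3; each axis starts at 0). For every gene the 3 untreated tpst libraries lie below the 3 Col-0 libraries.

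The list of genes for RGF perception and signalling holds TPST itself, co-receptors, kinases and ubiquitin proteases. It lacks RGI4, RGI5 and RITF1, which were dropped because the annotation does not give these names. DESeq2 called 3 of the list's 12 genes in tpst over Col-0. By edgeR, 3 were lower and 1 was higher, where 14.6% and 13.3% of all tested genes were, with a median log2 change of -0.015. TPST, described above, was the lowest of them. The others were BAK1 at -0.20 (adjusted p = 0.0367), a SERK-family co-receptor kinase, and UBP13 at -0.23 (0.0165), a ubiquitin protease that stabilizes RGI receptors. MKK4, a kinase of the MAP kinase cascade that acts below the receptors, had 27.1, 28.0 and 30.3 CPM in tpst, against 19.3, 20.4 and 15.5 CPM in Col-0, a log2 change of 0.63 without overlap (adjusted p = 1.34e-05, edgeR). With 100 nM PSK, SERK4 (-0.44, adjusted p = 0.0450) and MPK3 (-0.25, adjusted p = 0.0358) were lower than in untreated tpst by edgeR. At that dose 3.2% of all tested genes were called in either direction. With 1 µM PSK 0 of 12 were called by edgeR or DESeq2, with 3 at an unadjusted p under 0.05.

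Among the 4 other PLT-family genes, 1 was lower and 1 was higher in tpst, where 14.6% and 13.3% of all tested genes were. BABY BOOM (BBM), which acts with PLT1 and PLT2 in the root niche, had 0.734, 0.491 and 0.202 CPM in tpst, against 1.67, 1.96 and 1.35 CPM in Col-0 (log2 change -1.77, adjusted p = 0.00175, edgeR). PLT5, which also acts in shoot and lateral root development, had 19.2, 18.9 and 19.4 CPM in tpst, against 7.11, 7.34 and 8.81 CPM in Col-0 (log2 change 1.30, adjusted p = 3.62e-09, edgeR). Neither pair of ranges overlapped, and the 2 genes lay on opposite sides of Col-0.

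Among 8 partners and targets of SHR and SCR, 3 were lower in tpst and 0 were higher, where 14.6% and 13.3% of all tested genes were. Their median log2 change was 0.098, and 5 of the 8 log2 changes were above 0. The 3 lower genes encode BIRD-family zinc finger proteins that bind SHR or SCR. Another BIRD-family gene of the list, BIB, is named here after its value was seen. BIB averaged 25.6 CPM in tpst, against 23.7 CPM in Col-0, and its log2 change of 0.12 was not called (adjusted p = 0.560, edgeR). JACKDAW (JKD) had 6.79, 7.69 and 6.52 CPM in tpst, against 16.7, 15.7 and 18.5 CPM in Col-0, and MAGPIE (MGP) had 2.66, 2.58 and 2.02 CPM, against 5.99, 5.97 and 5.29 CPM. Their log2 changes were -1.28 (adjusted p = 9.45e-09) and -1.24 (3.72e-05), and that of NUTCRACKER (NUC) was -0.51 (0.0213), edgeR. Of these 8 genes, 0 were called at either PSK dose by edgeR or DESeq2, with 1 at 100 nM and 3 at 1 µM having an unadjusted p under 0.05.

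In the stem cell niche and root cap list, 2 of 8 tested genes were lower in tpst and 0 were higher, where 14.6% and 13.3% of all tested genes were. DESeq2 called 3 of the 8. AGL42, a MADS-box gene marking the quiescent centre, had 0.367, 0.736 and 0.354 CPM in tpst, against 1.49, 2.65 and 2.77 CPM in Col-0 (log2 change -2.21, adjusted p = 6.76e-04, edgeR). UPB1, a bHLH factor at the transition from division to elongation, had a log2 change of -1.27 (adjusted p = 0.0139, edgeR). WOX5, the homeobox gene of the quiescent centre, is named here after its value was seen: it had 1.24, 1.06 and 1.21 CPM in tpst, against 1.31, 1.19 and 1.54 CPM in Col-0. Its ranges overlapped, and the log2 change of -0.21 was not called (95% interval -0.89 to 0.48). DESeq2 called 3 of the 7 auxin transport and synthesis genes. By edgeR, 3 of them were lower and 1 higher in tpst, where 14.6% and 13.3% of all tested genes were. The largest of these changes was that of PIN2, an auxin efflux carrier of root epidermis and cortex, with 17.5, 14.6 and 11.3 CPM in tpst, against 43.4, 41.4 and 34.1 CPM in Col-0 (log2 change -1.45, adjusted p = 4.01e-06, edgeR).

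Markers of other tissues moved in the same comparison, where 14.6% of all tested genes were called lower and 13.3% higher. Of 22 markers of differentiated root cells, 19 were lower and 1 was higher in tpst than in Col-0, with a median log2 change of -1.48, and their summed level was 2727 to 2895 CPM in tpst, against 4592 to 4833 CPM in Col-0. By adjusted p the first of them were PHT1;1, a phosphate transporter (log2 change -1.43), PER3, a peroxidase (-1.67), PYK10, a β-glucosidase of root ER bodies (-0.65), and BGLU22, another β-glucosidase (-1.61). PYK10 alone made up most of the summed level, with a mean of 2547 CPM in tpst, against 4006 CPM in Col-0. Of 8 markers of green shoot tissue, 7 were higher, with a median of 0.31 and sums of 31818 to 32369 CPM in tpst, against 24239 to 25946 CPM in Col-0. Among shoot apical meristem markers, STM was higher at 0.84 (adjusted p = 0.00130, edgeR), 1 of 4 tested. By contrast, 0 of 13 markers of dividing cells were called by edgeR or DESeq2, with 1 at an unadjusted p under 0.05. The median of the 13 was -0.067, with sums of 281 to 300 CPM in tpst, against 299 to 317 CPM in Col-0. Values from whole seedlings do not separate dividing cells of the root from those of the shoot. The part of these tissue markers in the lower values of RGI1, RGI2, RGI3, PLT1, PLT2 and SHR was not tested.

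**Figure D4:**
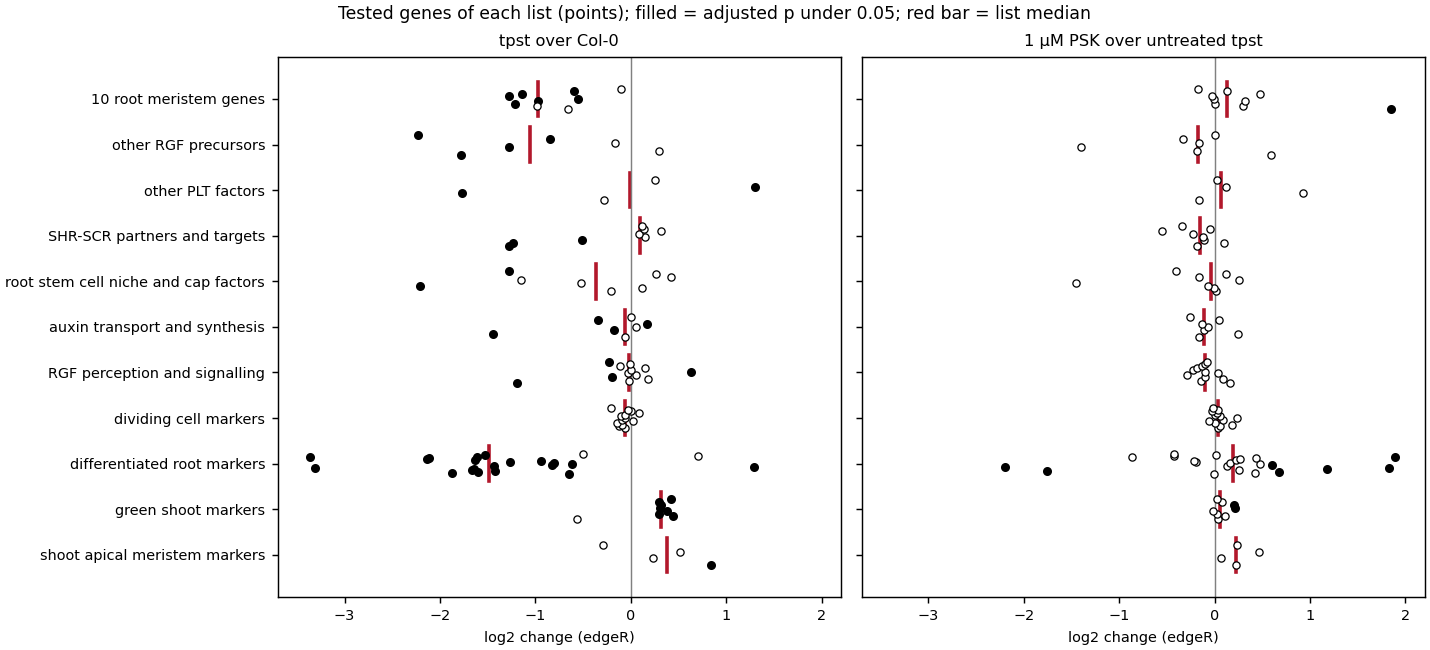
The log2 change of each tested gene (points, filled where the adjusted p was under 0.05) in the 10 genes and the other gene lists, with the list median as a red bar, in untreated tpst over Col-0 and in 1 µM PSK over untreated tpst. In the first panel the medians are -0.98 for the 10 genes, -1.48 for differentiated root markers, 0.31 for green shoot markers and -0.067 for dividing cell markers.

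The same markers were read with PSK. Of all tested genes, 3% were called higher and 3.45% lower at 1 µM, and 3.2% were called in either direction at 100 nM. At 1 µM, 5 of 22 differentiated root markers were higher and 2 lower than in untreated tpst, with a median of 0.19. Their summed level of 2736 to 2930 CPM overlapped that of untreated tpst. Most of that sum was PYK10, with a mean of 2535 CPM at 1 µM, against 2547 CPM in untreated tpst. Of the 8 green shoot markers 2 were higher, with a median of 0.056. At 100 nM, 3 root markers were higher and 2 lower, with a median of 0.22. The 2 lower markers were the same at both doses: PHT1;1, with log2 changes of -1.56 at 100 nM and -1.76 at 1 µM, and NRT2:1, a nitrate transporter named after its values were seen, with -2.38 and -2.19. NRT2:1 was also the 1 root marker that was higher in untreated tpst than in Col-0, at 1.29.

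Across the 12 libraries, which share the 4 groups as their main source of spread, the receptors RGI1 and RGI2 followed each other most closely of all pairs of the 9 tested genes. Their log2 CPM had a Pearson r of 0.923, and 0.728 after the group means were removed. For pairs that included SCR or RGF2, r lay between -0.30 and 0.55. Of all tested genes with a mean of at least 1 CPM, the closest to RGI1 was RBOHB (r = 0.959), to RGI2 AT2G48130 (0.982) and NPF2.9 (0.977), to RGI3 CAN1 (0.943), to PLT1 CBSDUF5 (0.960), to PLT2 AT1G56220 (0.954), to SHR MYB7 (0.964), to SCR GI (0.967) and to RGF2 CSN3 (0.877). These r values describe 12 libraries that share their groups and carry no test.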

How the data were processed

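Per the submitters' processing notes and the study's methods, the authors trimmed poly(A)-selected read pairs with fastp, aligned them to TAIR10 with HISAT2 (2.0.5) and counted fragments per gene with featureCounts (1.5.0-p3); strand and multi-mapping settings are not given in the sources used here. The deposited counts are whole and not normalized. The deposited FPKM, made by the authors, equal counts over exonic length and 1 factor per library, which lay above the count total in Col-0 and below it in the tpst groups, and served only to compare levels between genes. The 3 replicates of a group are independent according to the study.

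Tests used edgeR 4.0.16 under R 4.3.3: filterByExpr (minimum count 10), TMM, and glmQLFit with robust estimation on all 4 groups (8 residual degrees of freedom), where 20506 of 32833 genes were tested. The 6 comparisons were coded as the first group minus the second. On simulated counts the script was tested before use. DESeq2 1.42.0 was an alternative, with RLE or upper-quartile scaling, no filter, 2-group fits, a replicate block and leaving out each library. Intervals and ratios of RGF1 are exact and cover counting error only.

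The 10 genes and all gene lists were chosen with earlier results of these data known. From the list for RGF perception and signalling, 3 names were dropped since the annotation does not give them: RGI4 (AT5G56040), RGI5 (AT1G34110) and RITF1 (AT2G12646). All 10 genes were named with every library's value; from other lists, up to 4 called genes by adjusted p were named, plus TPST; for genes called at least once, the nearest genes by Pearson r of log2 CPM (prior count 2) were listed. Coordinates of 32532 of 32548 nuclear genes were the same in RefSeq TAIR10.1, from which sequences were read. No table columns belonged to other samples.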

Additional observations from a re-analysis of the deposited data

How the results depend on the processing

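For untreated tpst over Col-0, the directions of the tested genes and the 6 calls were the same under RLE or upper-quartile scaling, no filter, a fit of 2 groups (where RGF2 did not pass the filter), the replicate block and DESeq2, and 4 to 6 genes were lower when single libraries were left out. With 1 µM PSK over untreated tpst, 2 of the 9 genes were higher with RLE scaling or DESeq2 (RGF2 and RGI2) and 0 with the replicate block, under which RGF2 had a log2 change of 1.76 (adjusted p = 0.0596); leaving out single libraries gave 0 to 2. For 1 µM PSK over Col-0, leaving out single libraries gave 0 to 1 higher. Correlations between samples of the same replicate number lay between -0.23 and 0.26. With 3 replicates per group these values cannot settle whether the numbers pair the samples. Over all genes, 1 µM PSK over untreated tpst gave 1323 calls, 2115 in the fit of 2 groups and 778 to 2174 without single libraries, and 100 nM PSK gave 656, with 407 to 1033. Between the doses 49 genes were called, against 97 with no filter, 467 in the fit of 2 groups, 95 with the replicate block, 148 by DESeq2 and 17 to 535 without single libraries. No called log2 change turned its direction; 23 of 978 log2 changes under an alternative had the other sign, 0 of them called in either fit. RGF1 was too low to test, and the genes with the fewest counts among those tested, RGF2, PLT2 and RGF3, had the largest standard errors for untreated tpst over Col-0, at 0.594, 0.375 and 0.409 on the log2 scale.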
